A study of Mus musculus with 16 samples.

Results

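The 10 mRNAs described here come from immediate early genes and were measured in cells of the mouse line AML12 1 h after insulin. They are Fos, Fosb and Fosl1 of the FOS family, Jun, Junb and Jund of the JUN family, Egr1, Ier2, Ier3 and Myc. They were chosen by name, as the gene names on the array that equal one of these symbols, and all 10 were found among the 30214 gene names on the array. All 10 were also among the 19338 genes tested. Each was measured by 1 probe of 60 bases, and each of these probes was well above background on all 16 arrays.

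Immediate early genes are transcribed within minutes of a stimulus such as serum, a growth factor or insulin, without new protein synthesis. Their mRNAs and proteins are mostly short-lived. FOS and JUN proteins pair to form the transcription factor AP-1, EGR1 is a zinc finger transcription factor, and MYC pairs with MAX to drive growth genes. Insulin reaches these genes through the ERK kinases and the serum response factor, and their mRNAs must be loaded on ribosomes before any of the proteins appear.

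AML12 cells, a non-tumourigenic mouse hepatocyte line, carried a lentiviral vector from which doxycycline induced a scramble shRNA in one line and, in the other, an shRNA that targets eIF6, an initiation factor that keeps the large ribosomal subunit apart from the small one. The cells had been selected with puromycin. All cells received doxycycline for 48 h and insulin for 1 h, which the methods give as 100 nM and 1 label gives as 100 mM. Lysates were separated on sucrose gradients, and the light fractions were pooled as subpolysomal RNA and the heavy ones as polysomal RNA, so that there were 4 groups of 4 one-colour Agilent arrays. The labels write only "shrna" for the second line, and the target eIF6 is taken from the methods. The growth medium also held serum, insulin and dexamethasone, and no array came from cells without insulin. The response of these genes to insulin therefore could not be tested, and what follows is how their mRNAs lay between the fractions and how they differed between the lines.

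Between 20196 and 24960 probes were well above background on an array, and no spot was saturated. The 16 arrays lay on 4 slides, each with 1 array of every group. Eif6 itself was lower on polysomes of the eIF6 shRNA cells (log2 signal 11.89 ± 0.08 against 12.95 ± 0.01, SD, n = 4 each) and differed by 0.02 in subpolysomal RNA. Of 10 hepatocyte markers, Hnf4a, Foxa2, Krt8 and Krt18 were well above background on all arrays, whereas Alb, encoding albumin, was so on 7 arrays and Apoa1 on 3. Of 8 fibroblast or stellate cell markers, 7 could be tested and all 7 were lower on polysomes of eIF6 shRNA cells, with log2 changes of −3.53 to −1.39. Lum was well above background on 0 arrays. The summed signal of the 7 was 160000 to 259000 on scramble polysomes and 19100 to 26800 on eIF6 shRNA polysomes, and in subpolysomal RNA it was 119000 to 129000 and 43800 to 59600. The summed signal of the 10 hepatocyte markers, most of it from Krt18, was 316000 to 480000 and 355000 to 497000 on polysomes. Within that list, Ttr rose by 1.15 on the log2 scale on eIF6 shRNA polysomes (limma adjusted p = 5.52e-07) and Afp by 1.26 (adjusted p = 2.58e-06). Of 4 macrophage markers tested, Csf1r fell by 1.67 (adjusted p = 2.63e-07), and the other 3 were not called. The part of this difference between the lines in the results below was not tested.

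Since every value rests on a single probe, the stretches that decided the main results are shown here as the arrays carry them, with coordinates of the deposited files in mm9. Junb and Fos are shown because they rose on polysomes of eIF6 shRNA cells, and Ier2 and Ier3 because they lay farthest towards the subpolysomal fraction. For Fos and Ier3 only 30 bases of the probe are given. Capitals mark ATTTA, the core of the AU-rich elements that are known to shorten the life of early response mRNAs.
Fos, chr12:86817900-86817959, plus strand: ggactttattttccagtagatagaaatcaa
Junb, chr8:87501881-87501940, minus strand: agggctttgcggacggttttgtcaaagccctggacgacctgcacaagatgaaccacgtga
Ier2, chr8:87186214-87186273, minus strand: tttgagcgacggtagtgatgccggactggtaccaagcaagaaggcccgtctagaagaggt
Ier3, chr17:35959528-35959587, plus strand: agatATTTAttacgATTTAtagggtcggta

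The Ier3 probe held 2 copies of ATTTA and the Egr1 probe held 1, while the other 8 held none, against 8.0% of all 39429 probes with at least 1. Of the 3 reading frames, the Fos probe had 0 without a stop codon, the Ier2 probe 1 and the Junb probe 2. The probes had 35.0 to 55.0% G and C (median of all probes 41.7%). The Fos value was the mean of 10 spots, whose SD within an array was 0.024 to 0.068 on the log2 scale, whereas the others had a single spot.

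RefSeq promoters (GRCm38.p6) were at hand for 6 of the genes: Fos, Fosb, Ier3, Jun, Junb and Jund. The core of the cyclic AMP response element, TGACG on either strand, lay between 250 bases before and 50 bases after the start of Fos, Fosb and Junb, that is in 3 of 6, against 20.8% of 32851 promoters. The full element, TGACGTCA, was in 0 of these 6 windows, against 1.8% of all promoters. The CArG box, which binds serum response factor, and the AP-1 site TGACTCA were also in 0 of the 6, against 1.6% and 5.2% of all promoters. Sequence outside the window was not searched, nor were Egr1 and the other genes without a promoter at hand. The counts therefore do not show whether the genes have such sites. The 120 bases before the start of Fos and Junb are shown because both mRNAs rose on polysomes, with TGACG and, in Fos, TATAAA in capitals. TATAAA on either strand lay in the window of 2 of the 6 genes, Fos and Junb, against 13.6% of all promoters. In Junb it did not lie within the 250 bases before the start.
Fos, chr12:85473770-85473889, plus strand: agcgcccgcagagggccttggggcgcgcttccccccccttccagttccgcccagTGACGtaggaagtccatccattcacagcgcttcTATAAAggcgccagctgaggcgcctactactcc
Junb, chr8:84978749-84978868, minus strand: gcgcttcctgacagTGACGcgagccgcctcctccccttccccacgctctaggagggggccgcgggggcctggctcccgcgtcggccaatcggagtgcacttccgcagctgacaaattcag

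Relative to the rest of the genes, Ier3 and Ier2 lay towards the subpolysomal fraction in both lines, while the sign of the difference itself depended on how the arrays were scaled. With quantile normalisation over all arrays, 6 of the 10 were lower in polysomal than in subpolysomal RNA (Ier3, Ier2, Egr1, Fos, Jund and Jun), 0 were higher, and Fosb, Fosl1, Junb and Myc did not pass the test. With scaling to the 75th percentile 4 were lower, and Jun (adjusted p = 0.216) and Jund (adjusted p = 0.0546) lost their calls. With each fraction normalised by itself all 10 were called higher on polysomes, and with spike-in scaling 8 were, all but Ier2 and Ier3. The values in the next paragraphs are those of the quantile normalisation. These calls are those of limma at a Benjamini-Hochberg adjusted p under 0.05 over all genes tested. The background is high, with 60.1% of all genes called in this comparison, 31.7% higher and 28.4% lower. The median of the 10 was −0.46 on the log2 scale and that of all genes 0.036.

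Ier3, a regulator of survival and of ERK signalling, had the lowest estimate of the 10 in both lines. Its log2 signal in scramble cells was 14.66, 14.48, 14.43 and 14.55 in subpolysomal RNA and 13.41, 13.36, 13.43 and 12.99 in polysomal RNA. In eIF6 shRNA cells it was 14.65, 14.49, 14.48 and 14.42 against 13.43, 13.23, 13.23 and 12.98. The fractions were far apart without overlap in both lines, and the values of the lines overlapped within each fraction. The polysomal minus subpolysomal difference was −1.24 ± 0.11 (SE; limma adjusted p = 2.93e-07) in scramble cells and −1.29 ± 0.11 (adjusted p = 2.15e-07) in eIF6 shRNA cells. Within the 4 slides it ran from −1.44 to −1.08 and from −1.67 to −1.06.

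Ier2, which encodes a nuclear protein, came next. In scramble cells its log2 signal was 11.75, 11.46, 11.75 and 12.18 in subpolysomal RNA and 10.59, 10.80, 10.90 and 10.08 in polysomal RNA. In eIF6 shRNA cells the values were 12.01, 12.02, 11.82 and 11.57 against 11.18, 11.10, 10.83 and 10.45. The fractions again did not overlap, but the spread between arrays was wider than that of Ier3. The differences were −1.19 ± 0.21 (limma adjusted p = 0.000146) and −0.96 ± 0.21 (adjusted p = 0.000906), and both were below 0 within each of the 4 slides.

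Egr1, which carries growth factor signals to its target promoters, was 13.46, 13.25, 13.17 and 12.99 in subpolysomal RNA of scramble cells and 12.57, 12.55, 12.39 and 12.38 on their polysomes. In eIF6 shRNA cells it was 13.27, 13.05, 13.04 and 13.06 against 12.70, 12.48, 12.66 and 12.74. All polysomal arrays were below all subpolysomal ones in each line. The difference was −0.75 ± 0.10 (limma adjusted p = 1.83e-05) in scramble cells and −0.46 ± 0.10 (adjusted p = 0.00139) in eIF6 shRNA cells.

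Fos, the partner that gives AP-1 its strong activity, was 10.86, 10.78, 10.73 and 10.81 in subpolysomal RNA and 10.32, 10.26, 10.36 and 10.22 on polysomes of scramble cells. In eIF6 shRNA cells it was 10.64, 10.62, 10.71 and 10.67 against 10.55, 10.54, 10.59 and 10.44. The fractions did not overlap in either line, and the gap was narrower in eIF6 shRNA cells. It was −0.51 ± 0.07 (limma adjusted p = 9.72e-06) in scramble cells and −0.13 ± 0.07 (adjusted p = 0.0956) in eIF6 shRNA cells. The test of the change in the gap itself is given below with translational efficiency.

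The calls of the JUN family members were not all alike, and no test compared these genes with each other. Jund, the most constantly expressed JUN protein, had a difference of −0.47 ± 0.11 (limma adjusted p = 0.00208) in scramble cells and −0.28 ± 0.11 (adjusted p = 0.0458) in eIF6 shRNA cells. Its scramble arrays were 14.57 to 14.84 in subpolysomal and 14.04 to 14.41 in polysomal RNA, without overlap. Jun, the classic partner of FOS, had differences of −0.46 ± 0.19 (adjusted p = 0.0463) and −0.47 ± 0.19 (adjusted p = 0.0430), with fractions that overlapped in both lines. Junb, often an antagonist of JUN, differed by −0.13 ± 0.10 (adjusted p = 0.305) in scramble cells and lay on the polysomal side in eIF6 shRNA cells, by 0.25 ± 0.10 (adjusted p = 0.0485). In eIF6 shRNA cells 5 of the 10 were lower and 1 was higher (Junb), against 60.8% of all genes called, 32.2% higher and 28.7% lower. Leaving out replicate 1, 2 or 3 ended the call of Jun in both lines (limma adjusted p of 0.096 to 0.279), leaving out any 1 of the 4 replicates that of Junb in eIF6 shRNA cells (0.0609 to 0.154), and leaving out replicate 1, 2 or 4 that of Jund there (0.103 to 0.175). With the slide as a block the adjusted p of Junb in eIF6 shRNA cells was 0.0583. With scaling to the 75th percentile Jun (adjusted p = 0.151) and Jund (adjusted p = 0.117) were not called in eIF6 shRNA cells.

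Fosb, Fosl1 and Myc did not pass the test between the fractions in either line. Their differences were 0.13 and 0.14 for Fosb, −0.08 and 0.10 for Fosl1, which encodes FRA1, and −0.02 and 0.03 for Myc in scramble and eIF6 shRNA cells. The 95% intervals in scramble cells were −0.15 to 0.40 for Fosb, −0.34 to 0.19 for Fosl1 and −0.33 to 0.28 for Myc.

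**Figure D1:**
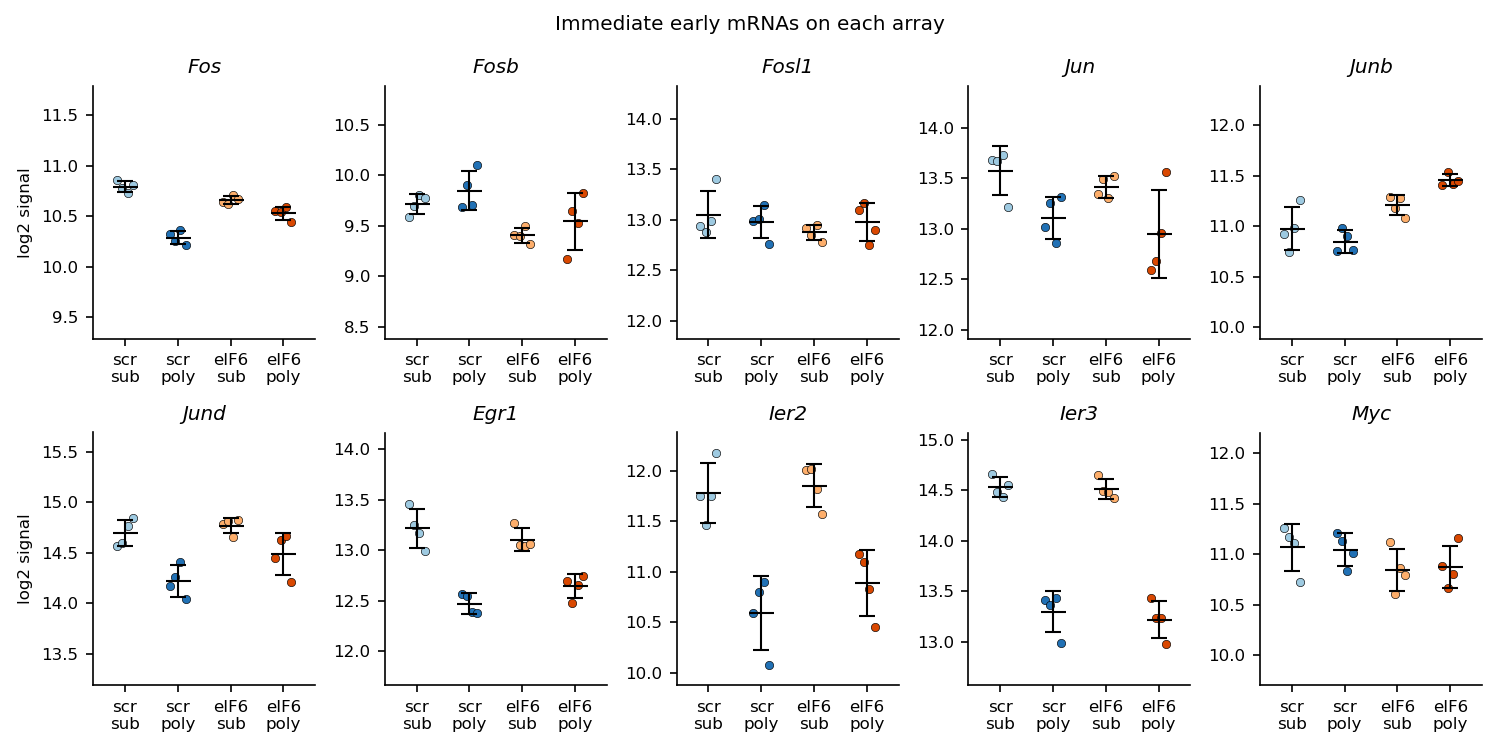
Log2 signal of the 10 immediate early mRNAs on each array, 1 panel per gene, with axes that all span the same number of log2 units. Points are arrays (scr, scramble; sub, subpolysomal; poly, polysomal; 4 per group), and bars are the mean ± SD. The polysomal arrays of Ier3, Ier2, Egr1 and Fos lie below the subpolysomal ones in both lines, and for Junb the polysomal arrays of eIF6 shRNA cells are the highest.

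The distance between the fractions depends on how the arrays were scaled, because polysomal arrays were brighter as a whole. When each fraction was normalised by itself, the median of all genes was 1.384 in scramble and 1.415 in eIF6 shRNA cells, when arrays were scaled to the spike-in probes it was 1.523 and 1.305, and when they were scaled to the 75th percentile it was −0.199 and −0.225. Under the first 2 of these scalings the differences of all 10 genes were above 0, so the position of a gene is better read relative to that median. Relative to it, Ier3 lay between −1.27 and −0.84 in scramble cells and between −1.35 and −0.95 in eIF6 shRNA cells over the 6 ways of processing tried. These are not independent of each other, since spike-in and 75th percentile scaling each shift a whole array and so give the same positions relative to the median, and 3 of the others use the same quantile normalisation over all arrays. Ier2 lay between −1.28 and −0.81, and between −1.07 and −0.57. Egr1 lay between −0.80 and −0.31 in scramble cells and between −0.54 and −0.02 in eIF6 shRNA cells. Fos, Jun and Jund were below the median of scramble cells throughout, with values of −0.16, −0.04 and −0.12 closest to it. In eIF6 shRNA cells, Fos was below the median with quantile normalisation over all arrays (−0.17) and above it when arrays were scaled by a constant (0.22) or each fraction was normalised by itself (0.19). Junb, Fosl1 and Myc changed sides in scramble cells, and Fosb was above the median in both lines throughout.

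**Figure D2:**
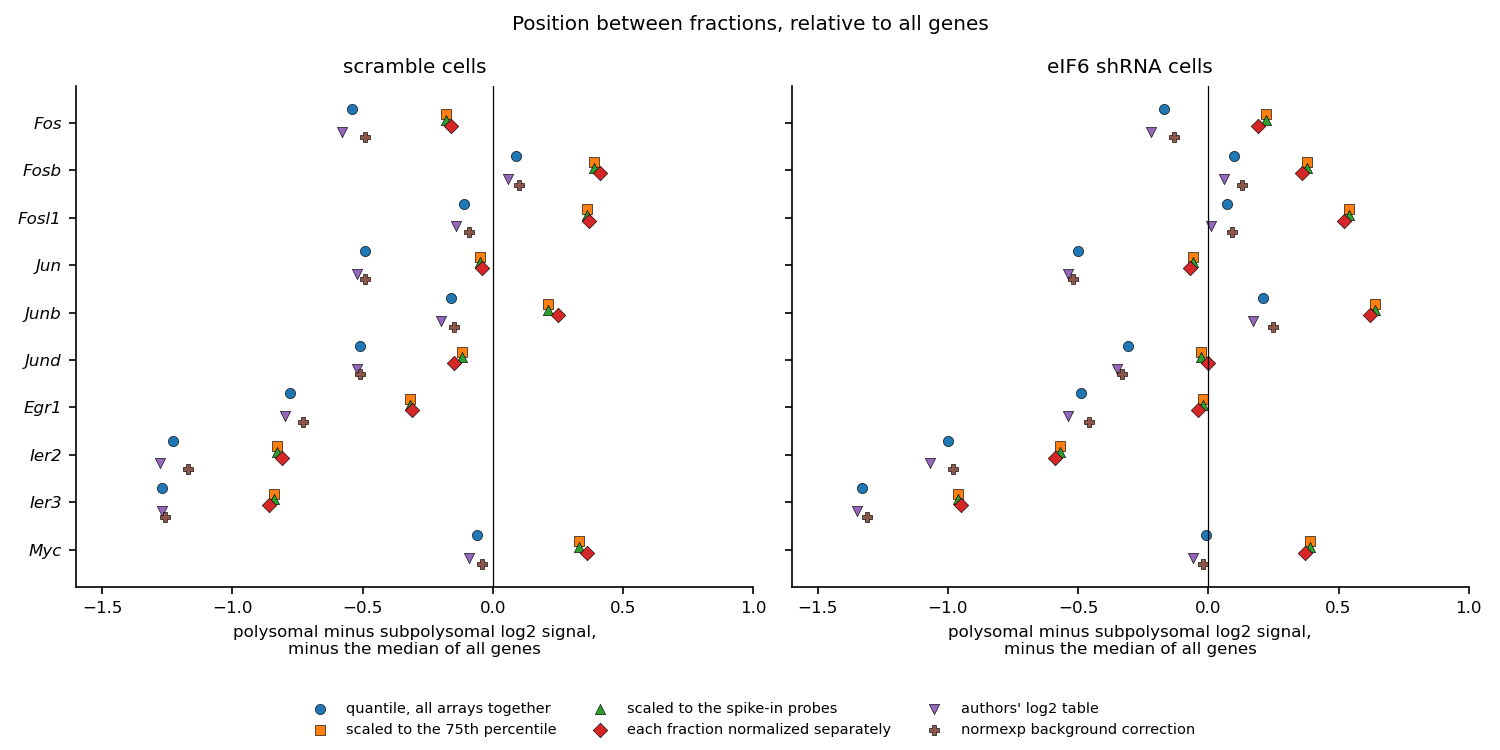
Polysomal minus subpolysomal log2 signal of the 10 genes, minus the median of all genes, in scramble cells (left) and eIF6 shRNA cells (right). Each symbol is 1 of 6 ways of scaling or background correction, of which spike-in and 75th percentile scaling coincide by construction, and the vertical line at 0 is a gene at the median. Ier2 and Ier3 stay left of −0.5 for every symbol shown, whereas Fos, Junb, Fosl1 and Myc cross the line in at least 1 of the panels.

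On polysomes, Junb and Fos were higher in eIF6 shRNA cells than in scramble cells, and none of the 10 was called lower. Junb was 10.75, 10.98, 10.90 and 10.76 on scramble polysomes and 11.41, 11.54, 11.42 and 11.45 on eIF6 shRNA polysomes. The groups were well separated, with a change of 0.61 ± 0.10 on the log2 scale (1.52-fold, 95% interval 0.39 to 0.83; limma adjusted p = 0.00047). Within the 4 slides the change of Junb was 0.44 to 0.78. Fos, with the array values given above, rose by 0.24 ± 0.07 (1.18-fold, 95% interval 0.10 to 0.38; limma adjusted p = 0.0158). All 4 eIF6 shRNA arrays were above all 4 scramble arrays, and within slides the change of Fos was 0.11 to 0.33. With the slide as a block the adjusted p values were 0.00129 for Junb and 0.0236 for Fos.

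That is 2 of 10 called, a share close to the 21.8% of all genes called in this comparison (11.1% higher and 10.7% lower). Fewer cells that express a gene and less of its RNA per cell cannot be told apart here, nor can a change in total mRNA and a change in its loading. The Fos call was lost without replicate 1, 2 or 3 (adjusted p = 0.125, 0.149 and 0.0957), and without replicate 4 Jund was called as well (0.31, adjusted p = 0.0361). With spike-in scaling, which brought the median of all genes to −0.474, 0 of the 10 were called, and the changes were 0.18 for Junb and −0.21 for Fos, that is 0.65 and 0.26 above the median. The mean log2 spike-in signal itself ran from 12.12 to 13.54 on scramble and from 12.57 to 13.62 on eIF6 shRNA polysomal arrays. This scaling carries that spread into every gene, and its part in the lost calls was not tested.

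The other 8 did not pass the test on polysomes. Their changes were 0.30 for Ier2, 0.27 for Jund, 0.17 for Egr1, 0.00 for Fosl1, −0.08 for Ier3, −0.16 for Jun, −0.17 for Myc and −0.30 for Fosb. Jund (limma adjusted p = 0.106) and Fosb (adjusted p = 0.119) had 95% intervals that left out 0, of 0.03 to 0.51 and −0.57 to −0.03. These intervals are not adjusted for the number of genes. At an unadjusted limma p under 0.05, 4 of the 10 passed, Junb and Fos among them, against 31.7% of all genes. Within the FOS family, Fos and Fosb thus had changes of opposite sign, and no test compared the 2 genes. Ier2 ran from 10.08 to 10.90 on scramble and from 10.45 to 11.18 on eIF6 shRNA polysomes, and Jun from 12.86 to 13.31 and from 12.59 to 13.56, and the groups overlapped for both.

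In subpolysomal RNA, limma called 0 of the 10, against 24.2% of all genes (11.9% higher and 12.3% lower). At an unadjusted p under 0.05, 2 of the 10 passed, against 35.7% of all genes. These were Fosb, lower by 0.31 ± 0.13 on the log2 scale (adjusted p = 0.0935), and Junb, with 0.23 ± 0.10 (adjusted p = 0.122). Fosb ran from 9.59 to 9.81 in scramble and from 9.32 to 9.50 in eIF6 shRNA subpolysomal RNA, without overlap. Fos had −0.13 ± 0.07 (adjusted p = 0.158), also without overlap. The share of all genes without overlap was not counted for this or the other comparisons, so such separations only describe the arrays. The remaining 7 had changes between −0.22 (Myc) and 0.08 (Jund). Without replicate 4, Junb was called, with 0.37 (adjusted p = 0.0104).

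Translational efficiency was compared by taking the change of subpolysomal signal away from that of polysomal signal, which tests whether the gap between fractions differed between the lines. Limma called 0 of the 10, against 1.5% of all genes (0.398% higher and 1.11% lower). At an unadjusted p under 0.05, 2 of the 10 passed, against 12.5% of all genes. Fos had 0.37 ± 0.09 (95% interval 0.18 to 0.57, adjusted p = 0.0648), and the 4 values within slides were 0.38, 0.26, 0.34 and 0.52. Junb had 0.38 ± 0.15 (0.06 to 0.69, adjusted p = 0.281), with 0.59, 0.15, 0.48 and 0.28 within slides. Egr1 came next, with 0.29 ± 0.15 (−0.02 to 0.60, adjusted p = 0.449) and values above 0 in all 4 slides.

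Fos was the only one of the 10 to be called in translational efficiency under any alternative. It was called in 2 of the 14 alternatives, with an adjusted p of 0.0479 when each fraction was normalised by itself and 0.00725 with the normexp background correction. Over all alternatives its change ran from 0.18, with spike-in scaling, to 0.41. With quantile normalisation over all arrays, the changes of the other 7 lay between −0.06 (Ier3) and 0.23 (Ier2). The interval for Ier3 was −0.40 to 0.28 and that for Myc −0.38 to 0.49. The median of the 10 was 0.19 and that of all genes 0.017, which describes the list and was not tested.

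**Figure D3:**
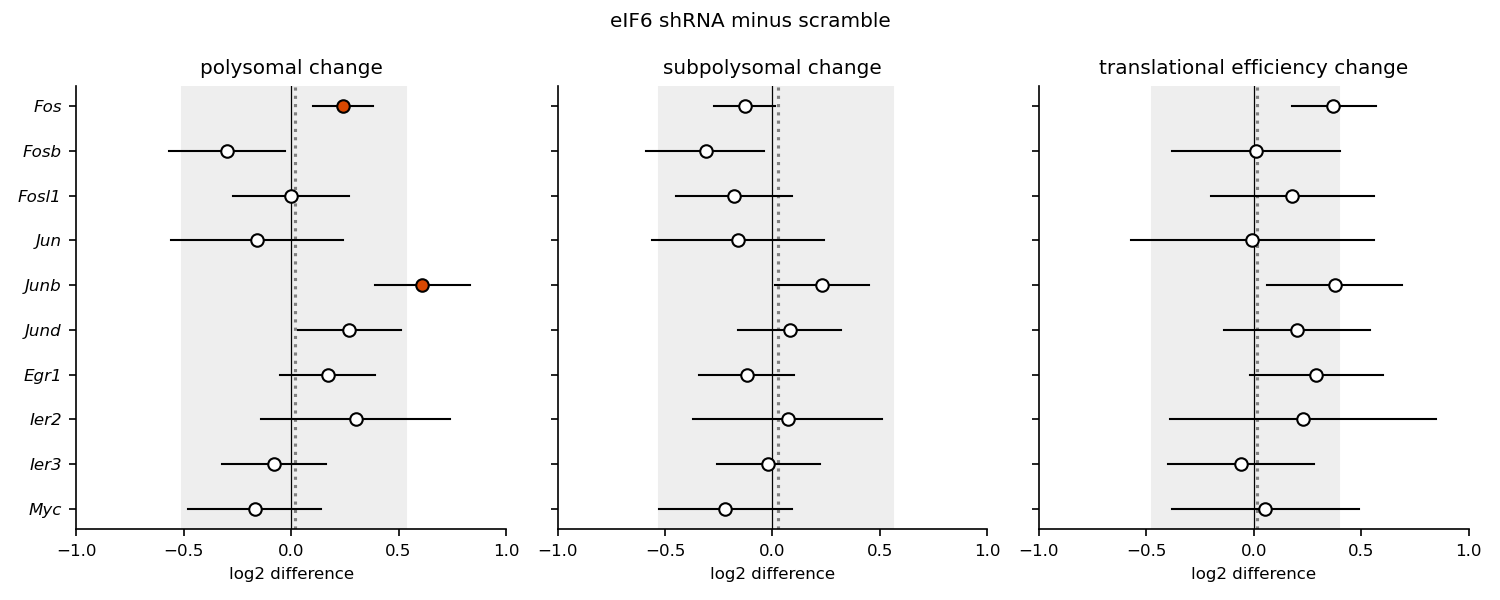
Log2 difference between eIF6 shRNA and scramble cells for the 10 genes on polysomes, in subpolysomal RNA and in translational efficiency (polysomal minus subpolysomal change). Points are limma estimates with 95% intervals, filled where the adjusted p was under 0.05. Grey bands run from the 10th to the 90th percentile of all genes, and the dotted line is their median. Only Junb and Fos are filled, both on polysomes, and the Junb estimate alone lies right of the band there.

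Genes that work with these 10 were followed in 8 lists, whose counts are to be read against the share of all genes called (11.1% higher and 10.7% lower on polysomes, 11.9% and 12.3% in subpolysomal RNA). Among the other AP-1 proteins, 11 of 13 could be tested, and on polysomes 1 rose and 1 fell, which is near that background. Atf3, a stress-induced partner of JUN proteins, rose by 0.67 ± 0.12 on the log2 scale on polysomes (limma adjusted p = 0.00091) and by 0.55 ± 0.12 in subpolysomal RNA (adjusted p = 0.00451). Batf3 fell by 0.42 ± 0.14 (adjusted p = 0.0445) and by 0.82 ± 0.14 (adjusted p = 0.000615). The median of the list was 0.14 on polysomes and −0.01 in subpolysomal RNA.

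Of 21 other immediate early regulators, 5 rose and 5 fell on polysomes, and 2 rose and 9 fell in subpolysomal RNA, where 12.3% of all genes were lower. Klf4 rose by 0.67 ± 0.12 in both (limma adjusted p = 0.00053 on polysomes) and Bhlhe40, a transcriptional repressor, by 0.45 ± 0.13 on polysomes. Klf2 fell by 1.01 ± 0.10 on polysomes (adjusted p = 2.82e-06) and Id3, an inhibitor of basic helix-loop-helix factors, by 0.58 ± 0.13. Both were also called lower in subpolysomal RNA, by 0.47 and 0.44. Egr2, a relative of Egr1, fell by 0.75 ± 0.08 in subpolysomal RNA (adjusted p = 5.79e-06) and by 0.57 on polysomes (adjusted p = 6.12e-05). Id1 fell by 0.67 ± 0.22 in subpolysomal RNA and was not called on polysomes. Btg2 rose by 0.41 ± 0.11 in subpolysomal RNA and by 0.40 on polysomes, where it was called as well. Between the fractions, 16 of the 21 were lower on polysomes in scramble cells and 10 in eIF6 shRNA cells, with medians of −0.51 and −0.29, against 28.4% and 28.7% of all genes lower. These values carry the same dependence on scaling as those of the 10 genes.

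The mRNAs of feedback inhibitors and effectors were called in both directions. Of 16 feedback inhibitors of growth factor signals, 1 rose and 2 fell on polysomes, against 11.1% and 10.7% of all genes. In subpolysomal RNA 1 rose and 5 fell, against 11.9% and 12.3%. There 15 of the 16 had changes below 0, with a list median of −0.23 against 0.025 for all genes. The share of all genes below 0 was not counted, and the list was not tested as a set. Dusp8, a phosphatase of JNK, rose by 0.66 ± 0.13 on polysomes (limma adjusted p = 0.00117). Spry1, an inhibitor of receptor signals to ERK, fell there by 0.54 ± 0.13 and Socs3, which blocks cytokine and insulin receptors, by 0.38 ± 0.09. Dusp8, Spry1 and Socs3 were also called in subpolysomal RNA, with 0.49, −0.62 and −0.48. Spry2 fell by 0.77 ± 0.19 in subpolysomal RNA and was not called on polysomes (−0.45). Of 23 other early response effectors, 6 rose and 3 fell on polysomes, and 5 rose and 6 fell in subpolysomal RNA. Arc rose by 1.39 ± 0.11 (adjusted p = 4.23e-07) and Tnfaip3, an inhibitor of NF-kB, by 1.10 ± 0.08 (adjusted p = 9.96e-08), with rises of 1.30 and 0.83 in subpolysomal RNA. Ptgs2, which makes prostaglandins, fell by 0.89 ± 0.14 on polysomes (adjusted p = 0.000292) and F3, tissue factor, by 0.32 ± 0.07. Both were also called lower in subpolysomal RNA, by 0.99 and 0.28. Rnd3 fell by 0.72 ± 0.16 in subpolysomal RNA and was not called on polysomes (−0.46).

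Upstream of these genes, 2 of 24 members of the ERK, JNK and SRF pathways rose on polysomes and 0 fell. The shares of all genes were 11.1% and 10.7%, and whether such small counts differ from them was not tested. The 2 that rose were Mapk3, the kinase ERK1, with 0.63 ± 0.16 (limma adjusted p = 0.011), and Rps6ka1, a kinase that ERK activates, with 0.41 ± 0.09 (adjusted p = 0.00286). In subpolysomal RNA 2 of the 24 rose and 3 fell, against 11.9% and 12.3% of all genes. Mapk3 and Rps6ka1 rose there too, by 0.53 ± 0.16 and 0.35 ± 0.09. Mkl2, a coactivator of serum response factor, fell there by 0.68 ± 0.14 and Creb1 by 0.44 ± 0.10. Of 18 genes of AU-rich element binding and mRNA decay, 1 rose and 2 fell on polysomes, against 11.1% and 10.7% of all genes. In subpolysomal RNA 1 rose and 1 fell, against 11.9% and 12.3%, so the list was not called beyond the background. Zfp36l1, which speeds the decay of early mRNAs, rose by 0.69 ± 0.12 on polysomes (adjusted p = 0.000401) and by 0.43 in subpolysomal RNA. Tia1 and Tial1, which bind such mRNAs, fell by 0.48 ± 0.16 and 0.21 ± 0.06 on polysomes, and Tial1 by 0.21 in subpolysomal RNA.

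Around Myc, 0 of 10 partners and antagonists rose and 2 fell on polysomes, counts near the 11.1% and 10.7% of all genes. Both that fell, Mxd3 by 0.70 ± 0.14 (limma adjusted p = 0.00206) and Mxd1 by 0.30 ± 0.10 (adjusted p = 0.0494), compete with MYC for MAX. In subpolysomal RNA 0 of the 10 rose and 3 fell, against 11.9% and 12.3% of all genes. Mxd3 and Mxd1 were among these, lower by 0.47 and 0.36. Of 17 MYC target genes, 1 fell on polysomes, Srm of polyamine synthesis, by 0.47 ± 0.13, and Nop56 of ribosome assembly fell by 0.56 ± 0.13 in subpolysomal RNA. In translational efficiency limma called 0 genes in each of the 8 lists, and between 0 and 4 genes of a list had an unadjusted p under 0.05. With spike-in scaling, 41 of the 43 changes that the rule for named genes picked from the lists lost their call, 1 changed sign and 1 remained called. That scaling moved all genes together and carried the spread of the spike-in signal between arrays. The polysomal change of Arc was then 0.97 (limma adjusted p = 0.419). Relative to the median of all genes it was 1.44 (1.37 with quantile normalisation). Tnfaip3 had 1.14 (1.09) and Rps6ka1 0.45 (0.39) on this relative scale. Leaving out replicate 1, 2 or 3 ended 17, 17 and 20 of these 43 calls, among them none of Arc, Tnfaip3, Atf3 and Klf4.

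**Figure D4:**
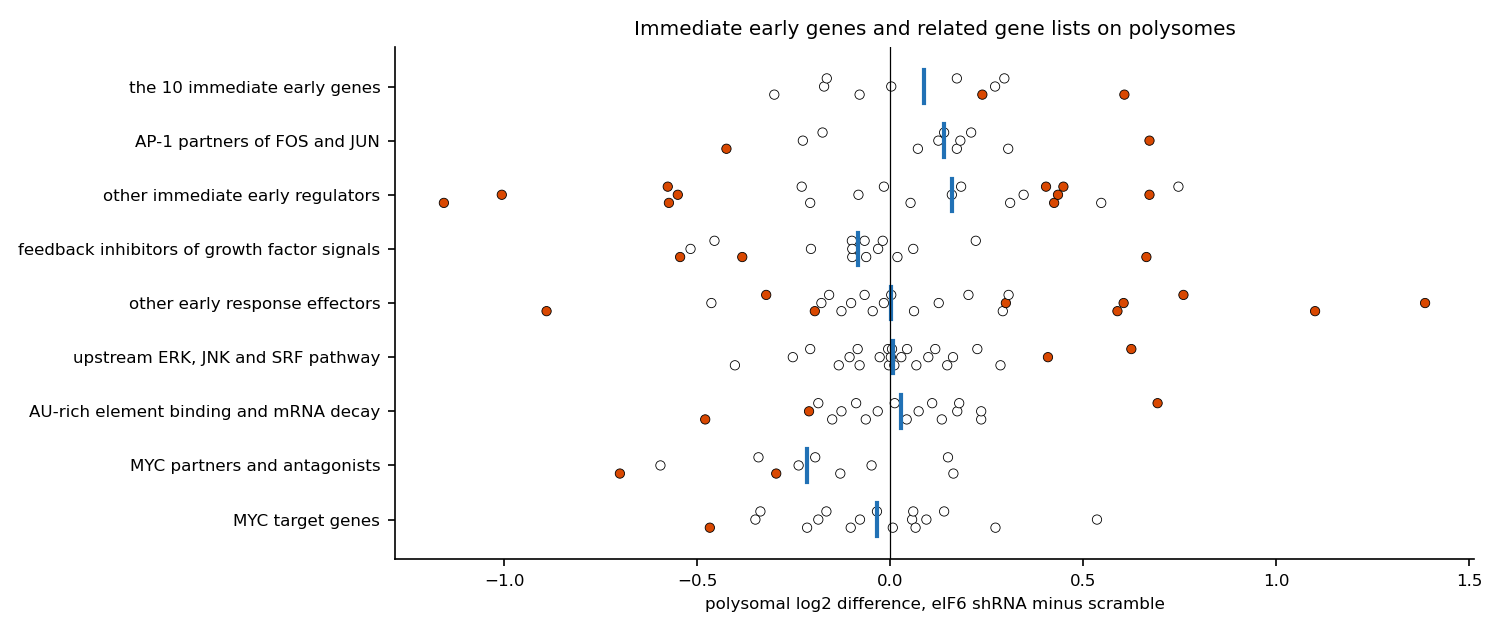
Polysomal log2 difference between eIF6 shRNA and scramble cells for the 10 immediate early genes and the 8 related lists. Each point is a gene, filled where the limma adjusted p was under 0.05, and the blue bar is the median of the list. Points are spread vertically only to separate them. Among the other immediate early regulators, 5 of 21 rose and 5 fell, and the medians of all lists lie between −0.22 and 0.16.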

How the data were processed

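Polysomal and subpolysomal RNA of AML12 cells was hybridised to 16 one-colour arrays. The authors deposited an intensity for each spot, already background-corrected by Feature Extraction (10.7.3.1 in the file headers, 10.7.7.1 in the labels and methods) and not normalised between arrays, and a set of log2 values that the authors had quantile normalised. Spots that carried a flag for non-uniformity or for being a population outlier were dropped, repeated spots were averaged, and probes were kept if 2 or more arrays of any group had them well above background (25262 of 39429 probes, 64.1%). Log2 intensities were quantile normalised over all arrays, and a gene was the mean of its kept probes. Linear models of limma 3.58.1 (R 4.3.3, data.table version 1.17.8) with 4 group means gave 5 comparisons, with Benjamini-Hochberg adjustment over 19338 genes and a threshold of 0.05. The comparisons share groups and so are not independent. The methods call the arrays biological quadruplicates.

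The 10 genes and the lists were chosen with earlier results of these data known. Besides the 10 genes and Eif6, the text names at most 2 called genes with the largest rise and 2 with the largest fall per list and comparison, among those well above background on all arrays. The alternatives tried were 2 other scalings (7 spike-in probes, 75th percentile), each fraction normalised separately, the deposited log2 values of the authors, normexp (offset 50), 2 other detection filters, the brightest probe, slide or replicate number as a block, and each of the 4 replicates left out. Same-numbered arrays of different groups had correlated deviations of −0.16 to 0.41 (mean 0), which cannot decide whether equal numbers mark paired samples. Arrays of the same slide had a mean correlation of 0.12, against −0.04 for other slides. The number of arrays limits the precision. The procedure was tested on simulated data. Accessions of all 10 probes matched RefSeq under the same symbols. Python 3.11.15 and matplotlib 3.10.9 made the figures.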

Additional observations from a re-analysis of the deposited data

Results flagged for a closer look

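In 3 of 40 groups of 4 arrays (10 genes in 4 groups), 1 array stood apart from the other 3, by a gap whose share of the range of the group exceeded the 95% critical value of Dixon. Chance alone gives about 1 in 20 such groups. Jun was 13.21 in subpolysomal RNA of scramble replicate 4, the lowest array of a group whose other values were 13.67 to 13.73. Egr1 was 13.27 in subpolysomal RNA of eIF6 shRNA replicate 1, above 13.04 to 13.06 in the others. Ier3 was 12.99 on polysomes of scramble replicate 4, below 13.36 to 13.43 in the others.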

How the results depend on the processing

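Of 700 values (10 genes, 5 comparisons, 14 alternatives), 588 kept their direction and their side of the threshold, 31 lost a call, 13 gained one and 68 changed sign. The causes were not tested, except that polysomal arrays were brighter as a whole, so scalings that leave this difference in place move all genes. Scaling to spike-in probes called 0 of the 10 genes on polysomes, with −0.21 for Fos, −0.45 for Fosl1, −0.19 for Jund, −0.26 for Egr1 and −0.14 for Ier2. In subpolysomal RNA it gave −0.04 for Junb, −0.06 for Jund and −0.18 for Ier2, and in translational efficiency −0.22 for Fosb, −0.04 for Fosl1, −0.13 for Jund and −0.15 for Myc. Between the fractions of scramble cells it gave 1.34 for Fos, 1.88 for Fosl1, 1.47 for Jun, 1.73 for Junb, 1.40 for Jund, 1.20 for Egr1, 0.70 for Ier2, 0.68 for Ier3 and 1.85 for Myc, and in eIF6 shRNA cells 1.52 for Fos, 1.24 for Jun, 1.28 for Jund, 1.28 for Egr1, 0.74 for Ier2 and 0.35 for Ier3. It brought the median of all genes to −0.474 on polysomes, −0.227 in subpolysomal RNA and −0.215 in translational efficiency. Rps6ka1 fell to −0.02 on polysomes. With each fraction normalised separately, all 10 genes were called between the fractions of each line and 1, Fos, in translational efficiency, where Fosb had −0.01. The fraction differences were then 1.23 for Fos, 1.75 for Fosl1, 1.35 for Jun, 1.63 for Junb, 1.23 for Jund, 1.08 for Egr1, 0.58 for Ier2, 0.52 for Ier3 and 1.74 for Myc in scramble cells and 1.60 for Fos, 1.35 for Jun, 1.41 for Jund, 1.38 for Egr1, 0.82 for Ier2 and 0.47 for Ier3 in eIF6 shRNA cells.

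With scaling to the 75th percentile, Ier3 had 0.08 in subpolysomal RNA and Fosb −0.03 in translational efficiency, and between the fractions of scramble cells Fosl1 had 0.16, Junb 0.01 and Myc 0.13. It called 4 of the 10 between the fractions of each line, without Jun (−0.25 in scramble, −0.29 in eIF6 shRNA cells) and Jund (−0.32 and −0.25). With normexp, Fosl1 had −0.01 on polysomes, Myc −0.01 between the fractions of eIF6 shRNA cells, and 1 gene, Fos, was called in translational efficiency. Without a filter on dim probes, 3 of the 10 were called as different between the fractions of eIF6 shRNA cells, and with the replicate block also 3. The replicate number as a block moved no other count of calls among the 10 by over 1.5 times. Whether equal numbers mark paired samples is not known.

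Leaving out each replicate in turn, 1 to 3 of the 10 were called on polysomes, 0 to 1 in subpolysomal RNA, 5 to 6 between the fractions of scramble cells and 3 to 4 in eIF6 shRNA cells. Values that changed sign then ran from −0.05 to 0.14 for Fosl1 on polysomes, from −0.10 to 0.29 for Ier2 and −0.05 to 0.02 for Ier3 in subpolysomal RNA, from −0.15 to 0.11 for Fosl1 and −0.12 to 0.06 for Myc between the fractions of scramble cells and from −0.08 to 0.12 for Myc in eIF6 shRNA cells. In translational efficiency they ran from −0.05 to 0.13 for Fosb, −0.01 to 0.36 for Fosl1, −0.18 to 0.12 for Jun, −0.02 to 0.40 for Ier2, −0.12 to 0.01 for Ier3 and −0.01 to 0.13 for Myc.

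Over all genes, the share called ran from 5.96 to 25.8% on polysomes (21.8% as reported), 2.01 to 31.8% in subpolysomal RNA (24.2%), 0.171 to 2.91% in translational efficiency (1.5%), 37.3 to 86.2% between the fractions of scramble cells (60.1%) and 37.5 to 83.9% in eIF6 shRNA cells (60.8%). Calls that were higher made up 50.9% on polysomes and 8.76% with spike-in scaling, 49.0% and 11.1% in subpolysomal RNA, and 26.5%, 6.06% and, with the 75th percentile, 12.2% in translational efficiency. Without replicate 4 they made up 38.9% there.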
